A study of Homo sapiens with 8 samples.

Results

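Interferon-stimulated genes and guanylate-binding proteins were followed in cells labelled HepG2 after transfection with Allstar control siRNA (group siNC) or with siRNA specific for XBP1 (group siXBP1), each with 3 libraries. The set holds 36 genes, chosen by symbol as known interferon-stimulated genes and GBP family members, and matched to rows of the deposited count table by NCBI Gene ID. The choice was made with earlier results of these data known. All 36 had a row among 18555, and all 36 passed the filter on low counts, which left 14337 genes. Every cell culture, in both groups, was exposed to 30 nM thapsigargin for 3 hours at 2 days after transfection, so each comparison concerns cells under endoplasmic reticulum (ER) stress. Thapsigargin blocks the calcium pump of the ER. XBP1 encodes a transcription factor of the unfolded protein response, and the series asks how its spliced form acts with LEF1 in liver cancer cells.

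Interferons are secreted when a cell senses foreign nucleic acid. Their receptors signal through JAK kinases to transcription factors that bind the interferon-stimulated response element (ISRE). Interferon gamma acts mainly through another DNA element, the gamma-activated site (GAS). Some antiviral genes, such as ISG15, IFIT1 and IFIT2, can also be switched on directly by IRF3 without secreted interferon.

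Library totals lay between 38209972 and 38890070 counts. The XBP1 transcript, which checks the labels, stood at 552, 502 and 500 counts per 1000000 counts of the library (CPM) in the siNC libraries and at 290, 299 and 276 CPM in the siXBP1 libraries. The transcript thus remained at 55.7% after siXBP1, with a log2 fold change of -0.84 (SE 0.08, edgeR adjusted p = 0.0331). The estimate was between -0.88 and -0.80 with any 1 library left out, but edgeR's adjusted p was then above 0.05 in 4 of 6 cases: leaving out siNC replicate 2 gave 0.175, siNC replicate 3 gave 0.213, siXBP1 replicate 1 gave 0.475 and siXBP1 replicate 2 gave 0.284. Of 12 hepatocyte markers, 5 (ALB, APOA1, APOB, TTR and FGB) had no row, and none of the other 7 reached a mean of 1 CPM. Their summed level was 0.463 to 0.753 CPM in siNC and 0.877 to 1.3 CPM in siXBP1, so the defining transcripts of the labelled cell type were near the detection floor. Among leukocyte markers CD3E, MS4A1, LYZ and TYROBP had no row. Without CD68, which many cell types express, the leukocyte sum was 0.798 to 1.41 CPM in siNC and 0.825 to 1.47 CPM in siXBP1. Within it, CD14 was lower in all 3 siXBP1 libraries (0, 8 and 10 counts) than in any siNC library (19, 12 and 12 counts). Its estimated log2 fold change was -1.22 (SE 0.80). Of 5 endothelial markers KDR had no row, and the sum of the other 4 was 8.52 to 9.69 CPM and 7.4 to 10.2 CPM, most of it from CDH5, which overlapped (-0.25, SE 0.18). TEK (0.481 ± 0.253 and 1.11 ± 0.188 CPM, SD, n = 3 each) and PECAM1 (0.473 ± 0.0756 and 0.805 ± 0.14 CPM) were higher in all 3 siXBP1 libraries than in any siNC library, at 12 to 50 counts per library. The part of such cells in the results was not tested. In bulk RNA, fewer cells of a type and less RNA per cell cannot be told apart.

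The promoters of the set are shown first, because many members share a sequence feature. The members were chosen as known interferon-stimulated genes, and interferon receptors act through factors that bind the ISRE. Its frequency in the set is therefore not independent of the choice. RefSeq windows from 250 bases before to 50 bases after a transcription start (GRCh38.p14) were found for 29 of the 36 genes. The ISRE core was searched as GAAANNGAAA on both strands, where N is any base. It occurred in at least 1 window of 21 of these 29 genes (72.4%), against 4.38% of all 27305 genes with a window and 4.04% of the tested genes with one. Counted by window, 25 of 39 windows of the set held it (64.1%), against 3.57% of all 35116 windows. In 11 genes a single window held 2 or more matches. The GAS letters TTCNNNGAA were found in 9 of the 29 genes (31%), against 9.38% of all genes and 8.55% of the tested genes. The kappa-B consensus of NF-kB factors was found in 4 (13.8%), against 7.09% of all genes and 9.12% of the tested genes. GAS and ISRE matches overlapped in some windows, as in BST2. These matches are descriptions of letters and not of binding.

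Stretches of 26 bases around the ISRE core are given on the strand of the gene, 5′ to 3′, with the core or its reverse complement in capitals. They show genes with larger and with smaller estimated differences between the groups, and 2 pairs of related sites.
IFIT3, chr10:89327867-89327892, plus strand: taaattagTTTCACTTTCcagtttcc
HERC5, chr4:88457037-88457062, plus strand: acattatgTTTCGTTTTCcactggag
RSAD2, chr2:6877624-6877649, plus strand: gtttcaacTTTCAGTTTCacatgtgg
ISG20, chr15:88638939-88638964, plus strand: acaaactaGAAACTGAAAcagggtcg
ISG15, chr1:1013382-1013407, plus strand: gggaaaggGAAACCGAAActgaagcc
DDX60, chr4:168318788-168318813, minus strand: ggagaaagGAAACCGAAActcccgcc
IFI44, chr1:78649763-78649788, plus strand: acactgagTTTCAGTTTCctttctct
BST2, chr19:17405737-17405762, minus strand: gggaaactGAAACTGAAAacctaatt
GBP1, chr1:89065318-89065343, minus strand: cgaagtacTTTCAGTTTCatattact
GBP3, chr1:89022847-89022872, minus strand: agaagtacTTTCAGTTTCattaggct
PARP9, chr3:122564324-122564349, minus strand: gcgcaaagTTTCAGTTTCgcttccct
DTX3L, chr3:122564324-122564349, plus strand: agggaagcGAAACTGAAActttgcgc

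PARP9 and DTX3L, which lie head to head, share 1 site: their stretches are the same 26 bases read from opposite strands. The stretches of GBP1 and GBP3 were identical at 21 of 26 bases. Read in the GAAA direction and counting every match in every window, 13 genes held GAAACTGAAA and 6 held GAAACCGAAA, with DDX60 and IFIT5 in both counts. Genes with the same letters differed in the estimates given below: RSAD2 and IFI44 both held GAAACTGAAA. Of the 7 genes with a window whose unadjusted p was under 0.05, 6 held an ISRE core, as did 15 of the other 22. No ISRE core was found in the windows of OAS1, HERC6, IFI35, XAF1, CMPK2, SAMD9L, STAT2 and IRF1, and no window was used for IFIT2, OAS2, OASL, MX2, USP18, GBP2 and GBP5.

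**Figure D1:**
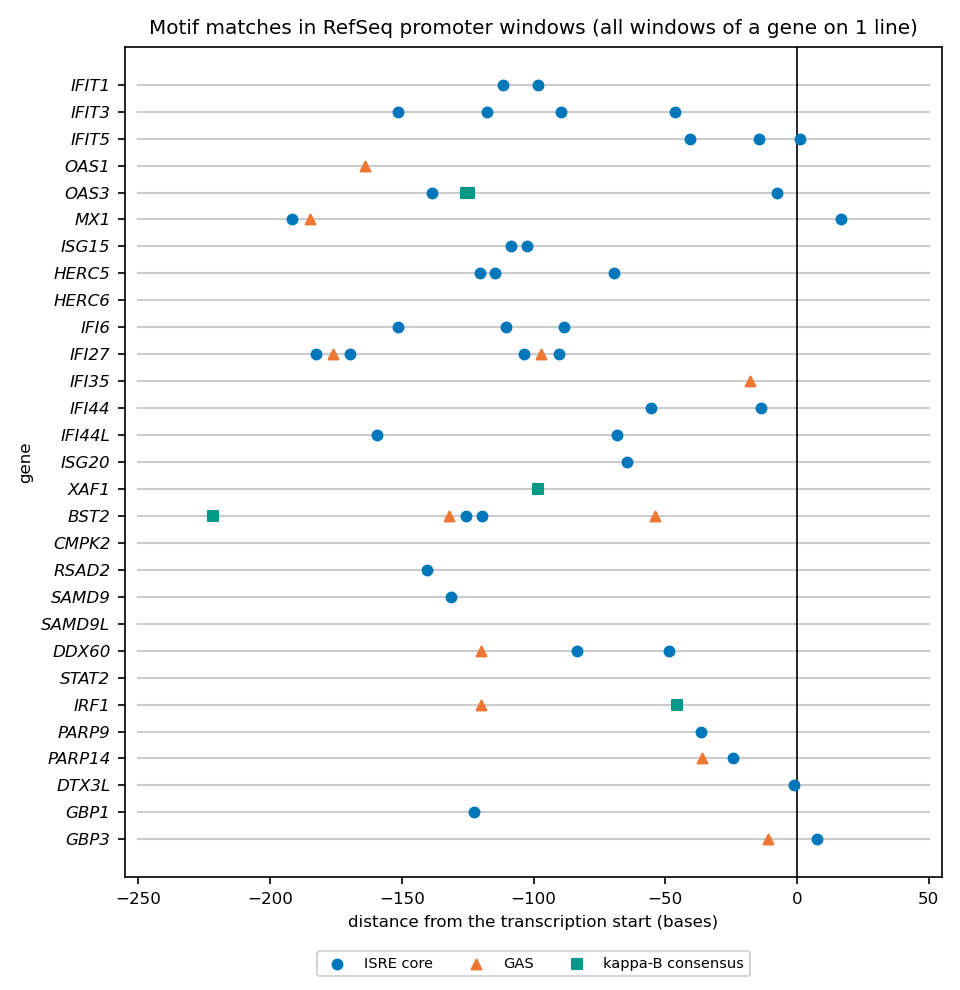
Positions of ISRE core (circles), GAS (triangles) and kappa-B (squares) matches, as distance in bases from the transcription start (x axis), for the 29 genes with RefSeq promoter windows (y axis). Windows of 1 gene share a line, so a match seen from 2 starts is drawn at both distances. Most ISRE cores lie between the start and 200 bases before it, and 21 of 29 genes hold at least 1.

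In siXBP1 most of the set had somewhat higher transcript levels than in siNC, but no member passed the test over all genes. Estimated log2 fold changes (siXBP1 over siNC) were above 0 for 31 of 36 members, with a median of 0.21. Over all 14337 genes tested the share above 0 was 52.8% and the median was 0.01. edgeR's quasi-likelihood test called 0 members at an adjusted p under 0.05, with a smallest member value of 0.9998, and 0.00697% of all genes, which is XBP1 alone. At an unadjusted p under 0.05 it gave 12 members as higher and 0 as lower, against 1.9% of all genes as higher. This count was 5 without siNC replicate 3, 7 without siXBP1 replicate 2 and 7 without siXBP1 replicate 3. DESeq2 called 0 members, and 0.115% of genes in either direction, at an adjusted p under 0.05. It gave 11 members as higher at an unadjusted p under 0.05. The limma-voom fit called 0 members, with 12 higher at that level. The share of all genes at that level (1.9%) was taken only for the edgeR fit of all 6 libraries by group. Counts from the other fits have no share of their own beside them. In 12 members all 3 siXBP1 libraries lay above all 3 siNC libraries, against 5.01% of genes, and in 0 members did they all lie below. Because the members were chosen with earlier results of these data known, their shares may not be independent of the choice.

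A second fit took the score of each library on the first principal component as a covariate. This component held 59.1% of the variance between libraries and placed siNC replicate 1 (0.643) and siXBP1 replicate 3 (-0.648) at its ends. It was computed from these same libraries, so the errors of this fit may be too small. With it, 8 members passed as higher and 0 as lower, against 0.711% of genes as higher. They were IFIT2, IFIT3, OASL, HERC5, ISG20, RSAD2, IRF1 and GBP5. Values are from the fit without the covariate unless it is named.

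**Figure D2:**
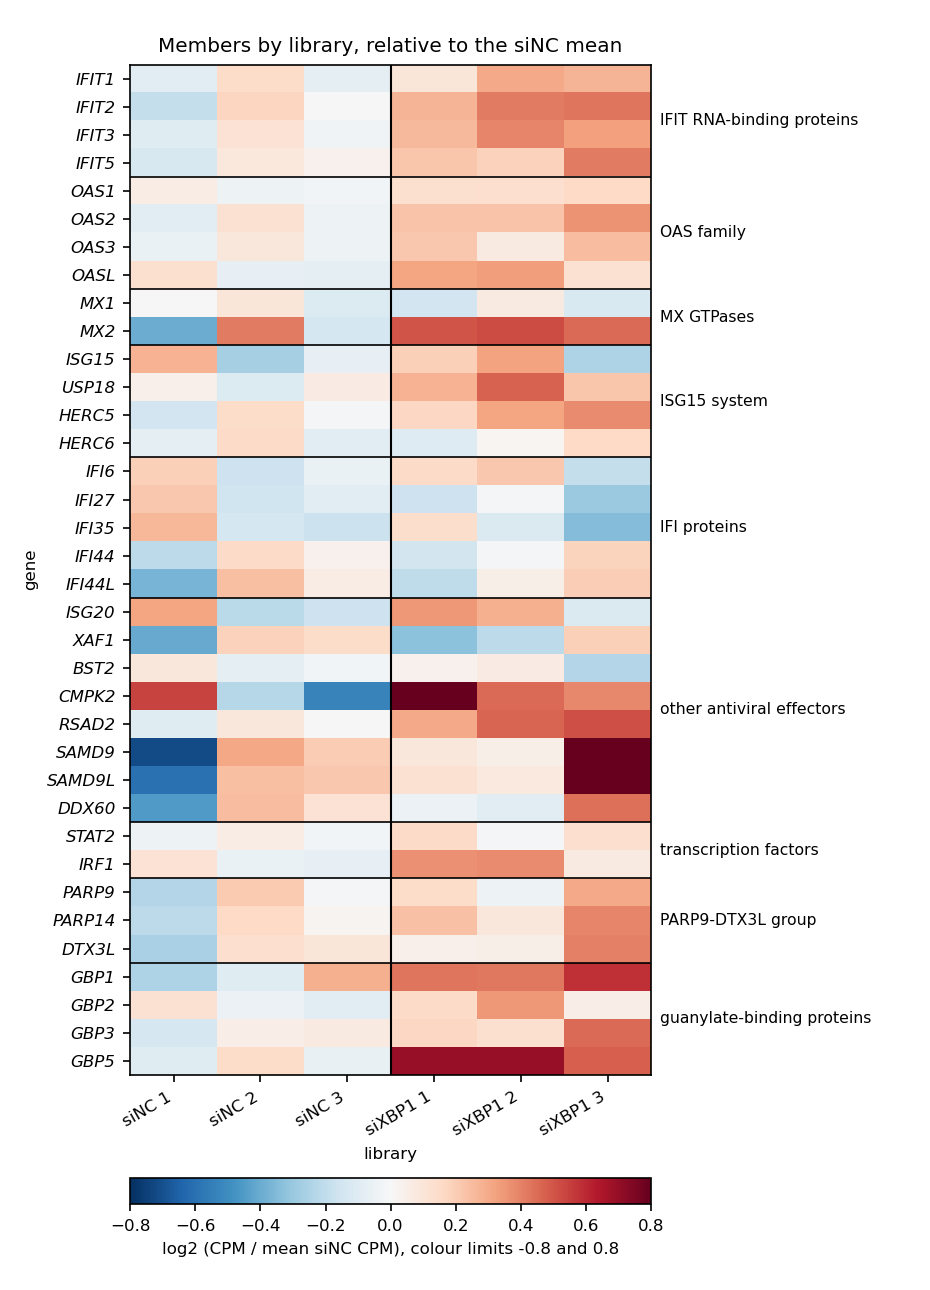
Level of each of the 36 genes (rows, grouped by role) in each library (columns), as log2 of CPM over the mean siNC CPM, from blue (lower) to red (higher) with the colours capped at -0.8 and 0.8. Rows such as IFIT2, RSAD2 and GBP5 are red in all 3 siXBP1 libraries, while SAMD9, SAMD9L and DDX60 are mainly low in siNC 1 and high in siXBP1 3.

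The IFIT proteins, which bind foreign RNA and block its translation, had 4 of 4 estimates above 0, with a median of 0.30. IFIT2 stood at 477, 612 and 541 CPM in siNC and at 656, 726 and 732 CPM in siXBP1. Every siXBP1 library was above every siNC library. Group means of 543 ± 67.6 and 704 ± 42 CPM (SD, n = 3 each) gave a log2 fold change of 0.38 (SE 0.11). With the covariate it was 0.34 (SE 0.06, edgeR adjusted p = 0.00324). IFIT3, which stabilises IFIT1 on RNA, stood at 430, 498 and 452 CPM in siNC and at 551, 603 and 577 CPM in siXBP1. Its groups did not overlap either, and the log2 fold change was 0.33 (SE 0.09), or 0.31 (SE 0.06, adjusted p = 0.0056) with the covariate. IFIT1, which recognises RNA ends without the cellular cap, overlapped: siXBP1 replicate 1 (435 CPM) was below siNC replicate 2 (451 CPM), with an estimate of 0.23 (SE 0.10). IFIT5 did not overlap, at 45.6 to 52.9 CPM in siNC and 56.7 to 66.4 CPM in siXBP1 (0.28, SE 0.11), but its estimate was 0.15 without siNC replicate 1 and siXBP1 replicate 3. The 4 genes are neighbours on chromosome 10, between 89302046 and 89420997 (GRCh38.p14), and each overlaps the annotated span of LIPA.

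The OAS enzymes make the 2-5A messenger that activates RNase L, and OASL is a relative that enhances RNA sensing. All 4 estimates were above 0, with a median of 0.22. OASL was at 667, 583 and 581 CPM in siNC and at 758, 769 and 665 CPM in siXBP1. The lowest siXBP1 library (replicate 3) and the highest siNC library (replicate 1) were nearly level, so the groups overlapped. Its log2 fold change was 0.26 (SE 0.10), and 0.30 (SE 0.05, adjusted p = 0.0031) with the covariate. It was 0.40 without siNC replicate 1 and siXBP1 replicate 3. OAS2 did not overlap, with 45.6, 52.7 and 47.2 CPM against 56.8, 56.8 and 62.3 CPM and an estimate of 0.27 (SE 0.11). OAS1 did not overlap, but differed least in this family, from 92.1 ± 3.5 to 101 ± 1.15 CPM (SD, n = 3 each). OAS3 overlapped in CPM, though not after TMM scaling, at 249, 275 and 252 CPM against 299, 271 and 307 CPM (0.18, SE 0.09). Neither OAS1 nor OAS3 passed in the covariate fit (adjusted p = 0.325 and 0.234).

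The MX proteins are dynamin-like GTPases that trap viral particles. MX1 was at 3.6, 3.83 and 3.32 CPM in siNC and at 3.22, 3.76 and 3.3 CPM in siXBP1, overlapping, with an estimate of -0.06 (SE 0.19). MX2 was at 1.39, 2.44 and 1.66 CPM in siNC and at 2.6, 2.63 and 2.51 CPM in siXBP1. These did not overlap, but siNC spread widely, and the estimate of 0.50 had an SE of 0.27. It was 0.33 without siNC replicate 1 and 0.75 without siNC replicate 2. With 54 to 102 counts per library, MX2 was among the members with few reads.

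ISG15 is a ubiquitin-like modifier, HERC5 its ligase and USP18 the protease that removes it and also restrains the interferon receptor. ISG15 was at 754, 517 and 593 CPM in siNC and at 710, 778 and 524 CPM in siXBP1. Both groups covered nearly the same range, with an estimate of 0.11 (SE 0.17), and 0.22 (SE 0.06, adjusted p = 0.0856) with the covariate. HERC5 was at 198, 243 and 219 CPM in siNC and at 247, 274 and 286 CPM in siXBP1. It did not overlap, and its estimate was 0.29 (SE 0.10), or 0.25 (SE 0.06, adjusted p = 0.0325) with the covariate. Leaving out siNC replicate 1 and siXBP1 replicate 3 together gave 0.18. USP18 did not overlap at 15.6, 14 and 15.8 CPM against 18.3, 21 and 17.6 CPM (0.33, SE 0.13). HERC6, the neighbour of HERC5 on chromosome 4, had 55.6 ± 5.46 and 56.7 ± 5.09 CPM (SD, n = 3 each) and an estimate of 0.03 (SE 0.12).

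**Figure D3:**
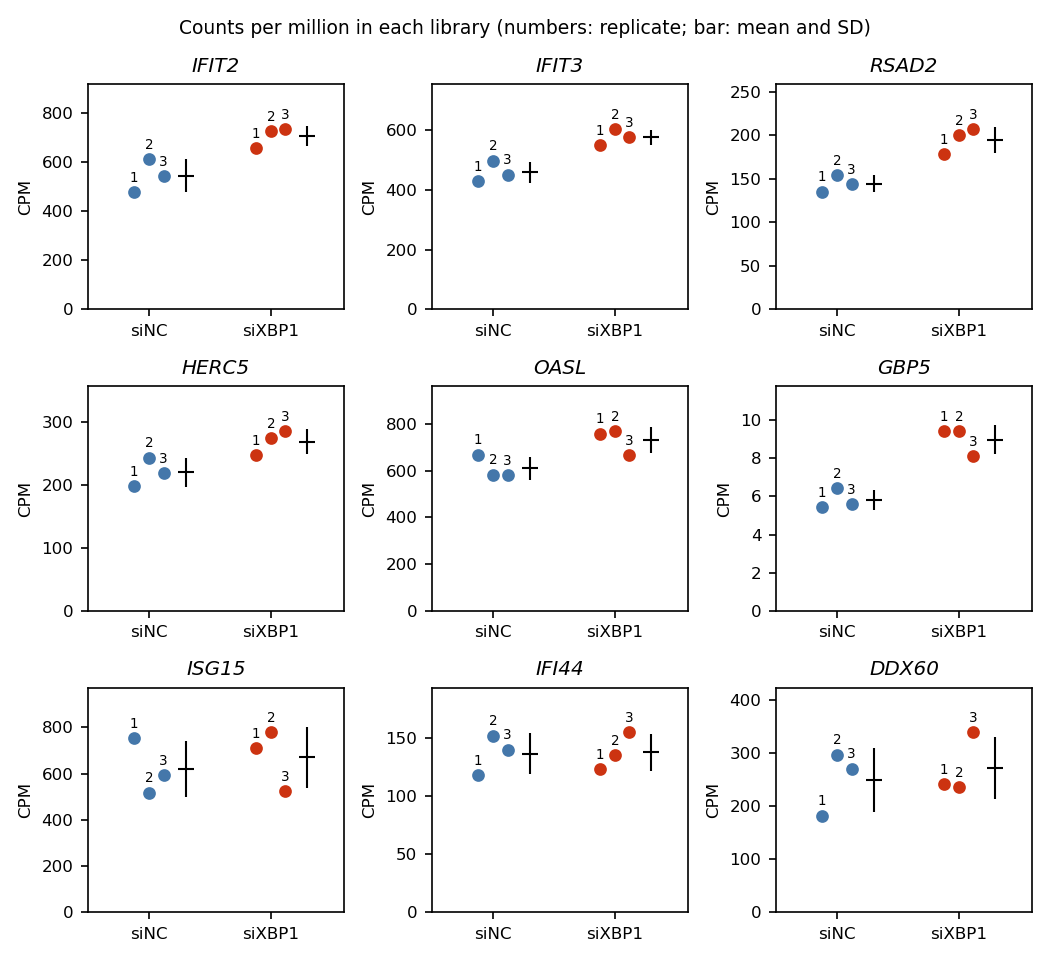
CPM of 9 genes in each siNC (blue) and siXBP1 (red) library, with the replicate number above each point and the group mean and SD at the right, on axes that start at 0. IFIT2, IFIT3, RSAD2, HERC5 and GBP5 do not overlap between groups, OASL, ISG15, IFI44 and DDX60 do.

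The genes named IFI for interferon-inducible were the role group with the smallest shift, with a median of 0.01, and 3 of 5 estimates were above 0. IFI6, a mitochondrial and ER protein that limits cell death, was at 118, 92.2 and 99.6 CPM in siNC and at 115, 120 and 90.4 CPM in siXBP1 (0.07, SE 0.14). IFI44 was at 118, 152 and 140 CPM in siNC and at 123, 136 and 155 CPM in siXBP1 (0.01, SE 0.12). IFI27 was at 16.9, 13 and 13.7 CPM in siNC and at 13, 14.4 and 11.8 CPM in siXBP1 (-0.15, SE 0.15). Groups overlapped for each of them and for IFI35 (-0.09, SE 0.16) and IFI44L (0.02, SE 0.18). In the covariate fit 1 of 5 estimates was above 0, and 0 passed.

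Among the other antiviral effectors, RSAD2 differed most clearly. RSAD2 encodes viperin, which makes a chain-terminating nucleotide. It was at 135, 154 and 144 CPM in siNC and at 178, 200 and 206 CPM in siXBP1. The groups were well apart, with means of 144 ± 9.39 and 195 ± 14.9 CPM (SD, n = 3 each). The log2 fold change was 0.43 (SE 0.10), a 1.35-fold difference, and 0.40 (SE 0.06, adjusted p = 0.000632) with the covariate. DESeq2, without the covariate, gave RSAD2 an adjusted p of 0.102, the smallest among the members. CMPK2, its head-to-head neighbour and a mitochondrial nucleotide kinase, had 34, 20 and 16 counts in siNC and 42, 32 and 30 in siXBP1. These few reads overlapped (0.58, SE 0.42), and the estimate was 0.95 without siNC replicate 1 and 0.36 without siNC replicate 3. The annotated spans of CMPK2 and RSAD2 overlap on chromosome 2.

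ISG20, an RNA exonuclease, was at 58.4, 40.4 and 41.7 CPM in siNC and at 59.6, 57.1 and 43.3 CPM in siXBP1. The groups overlapped because siNC replicate 1 was above siXBP1 replicates 2 and 3, while every siXBP1 library was above the other siNC libraries. The estimate of ISG20 was 0.19 (SE 0.17), and 0.30 (SE 0.07, adjusted p = 0.0352) with the covariate. With 1 library left out it ran from 0.083 (siNC replicate 2) to 0.37 (siNC replicate 1). BST2, the membrane tether for budding virions, was at 267, 238 and 247 CPM in siNC and at 257, 263 and 213 CPM in siXBP1. It overlapped, with an estimate of -0.04 (SE 0.11). XAF1, a proapoptotic partner of XIAP, overlapped too, with an estimate of -0.09 (SE 0.21).

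SAMD9, SAMD9L and the helicase DDX60 varied more within groups than between them. The translation inhibitor SAMD9 was at 113, 229 and 212 CPM in siNC and at 197, 190 and 326 CPM in siXBP1. DDX60 was at 182, 297 and 270 CPM in siNC and at 241, 236 and 338 CPM in siXBP1. In both, siNC replicate 1 was the lowest library and siXBP1 replicate 3 the highest, and among the other 4 libraries both siXBP1 values were below both siNC values. Their estimates were 0.36 (SE 0.27) and 0.12 (SE 0.19). The estimate of SAMD9 was 0.11 without siNC replicate 1 and 0.059 without siXBP1 replicate 3. Without those 2 libraries the estimates were below 0, at -0.18 for SAMD9, -0.12 for SAMD9L and -0.24 for DDX60.

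IRF1 and STAT2 are the transcription factors of the set. IRF1, which responds to interferon gamma and to NF-kB, was at 69, 61.4 and 61 CPM in siNC and at 82.1, 82.9 and 67 CPM in siXBP1. Only siXBP1 replicate 3 fell within the siNC range. The estimate was 0.28 (SE 0.12), and 0.33 (SE 0.07, adjusted p = 0.0102) with the covariate. It was 0.44 without siNC replicate 1 and siXBP1 replicate 3. STAT2 was at 50.3, 53.9 and 51 CPM in siNC and at 57.5, 51.4 and 56.7 CPM in siXBP1, overlapping, with an estimate of 0.09 (SE 0.10).

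PARP9 and the ubiquitin ligase DTX3L form a complex, and PARP14 is a related mono-ADP-ribosyltransferase. PARP14 was at 58, 74.9 and 68.1 CPM in siNC and at 78.8, 71.4 and 87.8 CPM in siXBP1 (0.25, SE 0.12). Its estimate was 0.15 without siNC replicate 1 and 0.075 without siXBP1 replicate 3 as well. DTX3L was at 58.9, 77.4 and 75.6 CPM in siNC and at 72.7, 73 and 93.3 CPM in siXBP1 (0.17, SE 0.14). PARP9, which shares the ISRE core above with DTX3L, had 46.1 ± 7.09 and 51 ± 6.04 CPM (SD, n = 3 each), with an estimate of 0.15 (SE 0.14). Groups overlapped for all 3, and without siNC replicate 1 and siXBP1 replicate 3 the estimates of PARP9 (-0.043) and DTX3L (-0.066) were below 0. The annotated spans of PARP9 and DTX3L overlap.

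The guanylate-binding proteins, GTPases that coat intracellular pathogens, had the highest median of the role groups with at least 3 genes, at 0.37, and 4 of 4 estimates above 0. GBP5 was at 5.43, 6.43 and 5.58 CPM in siNC and at 9.43, 9.41 and 8.11 CPM in siXBP1. Its groups were apart, with 5.81 ± 0.541 and 8.99 ± 0.756 CPM (SD, n = 3 each). The difference was 1.55-fold, or 0.63 on the log2 scale (SE 0.15). With the covariate it was 0.63 (SE 0.15, adjusted p = 0.03). GBP1 was at 5.84, 6.48 and 8.44 CPM in siNC and at 9.3, 9.26 and 10.4 CPM in siXBP1, also apart (0.48, SE 0.17). GBP3 was at 15.4, 17.5 and 17.7 CPM against 18.9, 18.4 and 23.1 CPM, apart as well (0.26, SE 0.13). The estimate of GBP3 was 0.14 without siXBP1 replicate 3, and 0.090 when siNC replicate 1 was left out too. GBP1 went to 0.32 without these 2 libraries. GBP2 overlapped (0.19, SE 0.16), with an estimate of 0.095 without siXBP1 replicate 2. Of this family only GBP5 passed with the covariate, and whether its change differed from that of its relatives was not tested.

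**Figure D4:**
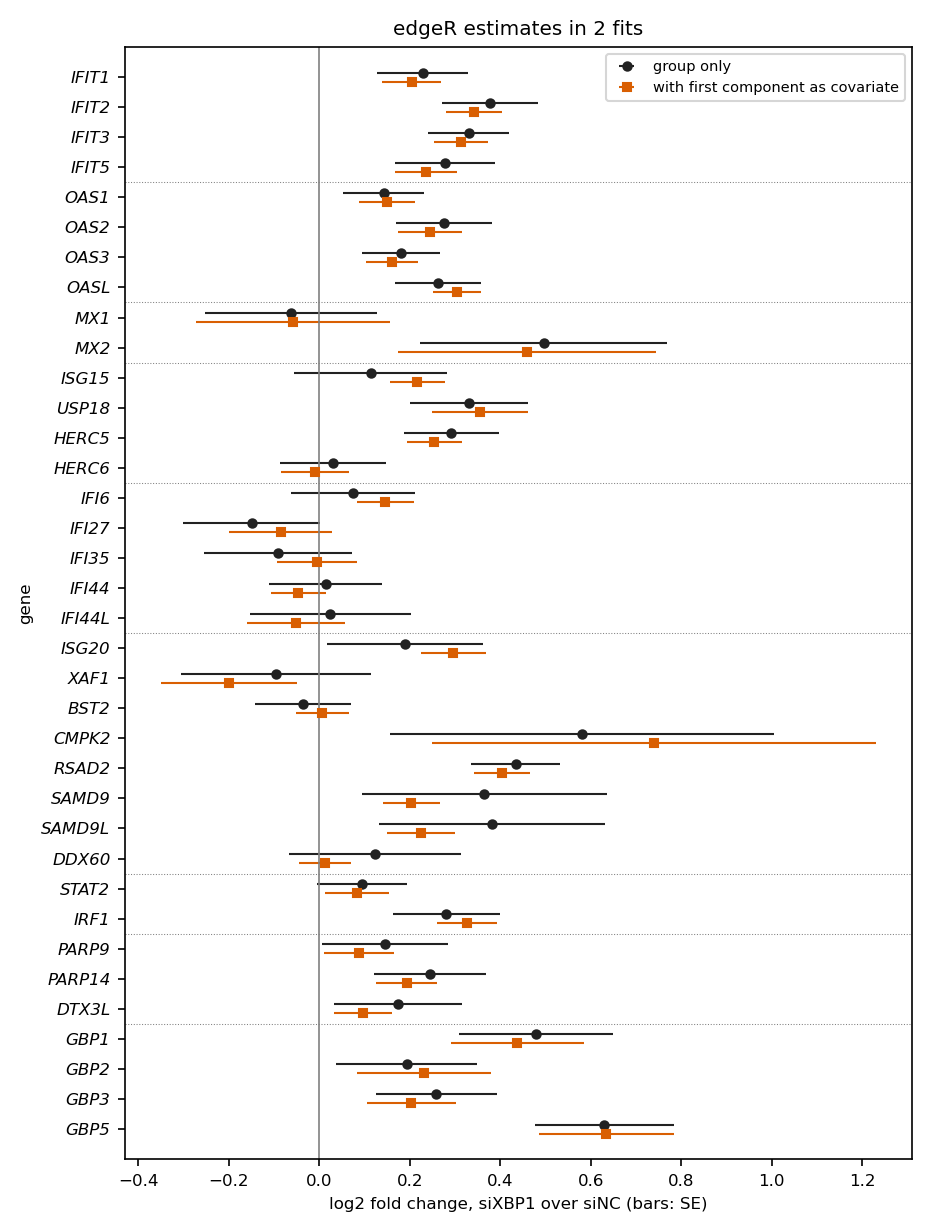
Log2 fold change of siXBP1 over siNC (x axis) with its SE for each of the 36 genes (y axis, dotted lines between role groups), from the fit with group alone (black circles) and the fit with the first component as a covariate (orange squares). Both estimates lie above 0 for most genes, and SEs shrink most for SAMD9, SAMD9L, DDX60 and ISG15.

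The members did not vary as a block across libraries. In 17 of 36, siNC replicate 1 was below both other siNC libraries and siXBP1 replicate 3 above both other siXBP1 libraries. In 10 the reverse held, and 9 followed neither pattern. Among all genes tested these shares were 29.1%, 29% and 42%. SAMD9 lay at the first extreme, with siNC replicate 1 below the mean of the other siNC libraries by a log2 difference of -0.97 and siXBP1 replicate 3 above its own by 0.75. ISG15 was an example of the second, with 0.45 and -0.50. GBP5 (-0.14 and -0.22), IFIT3 (-0.14 and 0.00) and USP18 (0.06 and -0.15) followed neither. The median member, relative to its siNC mean, was at -0.09, 0.10 and -0.02 in the siNC libraries and at 0.17, 0.16 and 0.26 in the siXBP1 libraries. These 2 libraries thus carried opposite shifts for different members, and their part in the group difference is given by the values without them.

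Leaving both out, edgeR called 8 members as higher and 0 as lower, against 1.45% of genes as higher. These were IFIT3, OASL, ISG15, IFI6, ISG20, RSAD2, IRF1 and GBP5. The median over the members was 0.17, with 26 of 36 estimates above 0. This fit rests on 2 libraries per group. Both left-out libraries were picked as the ends of a component computed from these same data. The errors of this fit may therefore be too small. With it edgeR called 702 genes in either direction, against 1 with all 6 libraries and group alone. With any 1 library left out, 0 members passed, and the median stayed between 0.17 and 0.25.

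**Figure D5:**
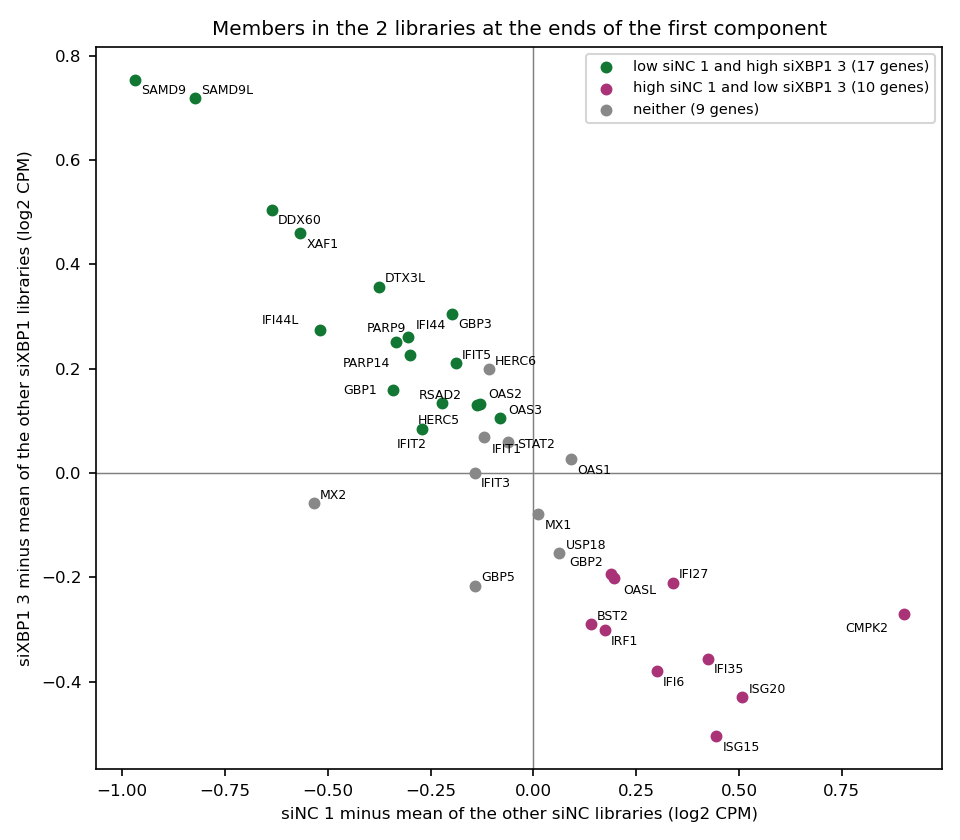
For each of the 36 genes, the log2 CPM of siNC 1 minus the mean of the other siNC libraries (x axis) against that of siXBP1 3 minus the mean of the other siXBP1 libraries (y axis). Genes low in siNC 1 and high in siXBP1 3 (17, green) and genes with the reverse (10, purple) fall in opposite quadrants, and 9 (grey) follow neither pattern.

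Other genes of the pathway were read from lists chosen by function. Of 21 genes for interferon receptors, their kinases, STATs and inhibitors, 13 had estimates above 0, with a median of 0.02, and 0 passed in either fit. JAK1 had an estimate of 0.10 (SE 0.10) and STAT3 one of 0.16 (SE 0.08). Of 39 other interferon-stimulated genes tested, 21 had estimates above 0, with a median of 0.01. At an unadjusted edgeR p under 0.05, 5 of them (12.8%) were higher and 0 lower, against 1.9% of all genes as higher. In 7 of the 39 (17.9%) every siXBP1 library lay above every siNC library, against 5.01% of genes. In 0 of the 39 did every siXBP1 library lie below. ZC3HAV1, the zinc-finger antiviral protein, alone of these 39 passed with the covariate. It was at 235, 289 and 274 CPM in siNC and at 320, 322 and 353 CPM in siXBP1, without overlap (0.32, SE 0.10, and 0.28, adjusted p = 0.00804, with the covariate). GBP4, a relative of the 4 GBP genes above, had 24, 36 and 52 counts in siNC and 72, 98 and 62 in siXBP1 (1.06, SE 0.36). It was named after its values were seen.

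Genes of interferon-induced antigen presentation had 4 of 9 tested estimates above 0, a median of -0.00099 and 0 calls in either fit. Of this list TAP1, PSMB8 and PSMB9 had no row, and HLA-E ranged from 0 to 58 counts between libraries. B2M, the light chain of the class I complex, had an estimate of 0.09 (SE 0.08) and ERAP1, which trims peptides for it, one of 0.0084 (SE 0.10). Of 15 RNA or DNA sensor and interferon genes tested, 11 had estimates above 0, with a median of 0.24. IFNL1, which encodes a type III interferon, was at 5.89, 4.4 and 4.75 CPM in siNC and at 10, 7.45 and 6.1 CPM in siXBP1 (0.65, SE 0.21), and passed with the covariate (0.74, adjusted p = 0.0167). Of 13 NF-kB subunit and feedback genes, 12 had estimates above 0, with a median of 0.18. Of these, 3 passed as higher with the covariate and 0 as lower: TNFAIP3 (0.50), NFKBIZ (0.48) and RELB (0.29). The share of all genes passing as higher in that fit was 0.711%. Its errors may be too small, which also limits the calls of ZC3HAV1 and IFNL1. DESeq2 called TNFAIP3 without the covariate (adjusted p = 0.00793). The sensor and NF-kB lists thus had medians near that of the members (0.21). The receptor, other interferon-stimulated and antigen presentation lists had medians near that of all genes tested (0.01). At an unadjusted edgeR p under 0.05, however, 12.8% of the other interferon-stimulated list was higher, against 1.9% of all genes tested. For the receptor and antigen presentation lists this share was 0%. All these lists come from the same 6 libraries, so likeness between them is no separate evidence.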

How the data were processed

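Per the labels' protocols, the TruSeq stranded kit was used for the 6 RNA-seq libraries. STAR 2.5.2a, featureCounts 1.5.0 (Subread) and hg38 are named in the submitters' processing notes. For the gene annotation and the strand setting, the tool's options were not given in the sources used here. Values are raw: the authors deposited whole-number read counts per NCBI Gene ID, not normalized. Columns match sample titles. RefSeq names (GRCh38.p14) were found for 18526 of 18555 IDs, and the other 29 rows held 0.00349% of counts. A count of 3, taken as the floor, is 0.077 to 0.079 CPM. Among counts from 1 to 40, 75.8% to 80.5% were even, so halved counts were one alternative. The 2 ChIP-seq samples were not analysed here.

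CPM are counts scaled to a library total of 1000000. Genes kept by filterByExpr were tested with edgeR 4.0.16 (R 4.3.3), TMM, quasi-likelihood, two-sided, group as the only term, Benjamini-Hochberg over all genes. SE is the size of the log2 fold change over the root of F. Nothing in the labels says that replicates came from separate cultures. The p-values therefore reflect only the spread among these libraries, possibly technical. Principal components used the 11528 genes averaging 100 counts or more (log2 CPM). The edgeR step was tested on simulated data. Alternatives were other scaling factors, other filters, DESeq2, limma-voom, a replicate block, the component as covariate, libraries left out and an adjusted p under 0.01.

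The members, lists and alternatives were chosen with earlier results of these data known. Per-library values were given for members passing in either fit and, per role group, the 2 with the highest mean CPM and the 1 with the largest change. Of the other lists, genes passing in either fit are named, or else the 2 with the highest mean CPM. SAMD9, GBP4 and other genes shown beyond this rule were chosen after their values were seen. CPM were not compared between genes, since transcript lengths were not used. Spans of 16 members overlap another annotated gene, and how reads shared by relatives were counted is not known, so values of such genes are uncertain. Exact-letter motif searches used RefSeq promoter windows.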

Additional observations from a re-analysis of the deposited data

How the results depend on the processing

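Over 17 alternatives, 611 re-estimates of the members' log2 fold changes were made: 561 kept direction and side of the threshold, 16 newly passed and 34 changed sign. For 22 of 36 members no alternative changed the sign. The count of members passing was 8 with the first component as a covariate and 8 with both end libraries of that component left out, and 0 in the other 15 fits and at an adjusted p under 0.01. Genes passing numbered 16 with DESeq2, 172 with the covariate, 702 without both end libraries, 0 with upper-quartile factors, 0 at an adjusted p under 0.01, and 0 to 1 with 1 library left out. XBP1 stayed between -0.88 and -0.80 with 1 library left out. The cause of these changes was not tested.

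Signs changed with the covariate for HERC6 (-0.0090), IFI44 (-0.046), IFI44L (-0.051) and BST2 (0.0067). Without both end libraries they changed for HERC6 (-0.072), IFI27 (0.042), IFI35 (0.18), IFI44 (-0.17), IFI44L (-0.22), BST2 (0.11), SAMD9 (-0.18), SAMD9L (-0.12), DDX60 (-0.24), PARP9 (-0.043) and DTX3L (-0.066). With 1 library left out the estimates ran from -0.021 to 0.27 for ISG15, -0.051 to 0.11 for HERC6, -0.018 to 0.18 for IFI6, -0.22 to 0.059 for IFI35, -0.089 to 0.092 for IFI44, -0.13 to 0.16 for IFI44L, -0.28 to 0.00998 for XAF1, -0.10 to 0.041 for BST2 and -0.075 to 0.26 for DDX60. Among members that kept their sign in these 6 fits, some estimates differed over 1.5 times from that with all 6 libraries. These were MX1 (-0.15 to -0.017), MX2 (0.33 to 0.75), IFI27 (-0.24 to -0.033), ISG20 (0.083 to 0.37) and CMPK2 (0.36 to 0.95). Also among them were SAMD9 (0.059 to 0.55), SAMD9L (0.091 to 0.52), STAT2 (0.063 to 0.13) and PARP9 (0.038 to 0.26). The rest were PARP14 (0.15 to 0.33), DTX3L (0.034 to 0.24), GBP2 (0.095 to 0.25) and GBP3 (0.14 to 0.31). Members not listed could also span a wide range, as GBP1 did (0.37 to 0.64).

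With the replicate number as a block, 1 gene and 0 members passed, and the members' median was 0.21. The smallest edgeR adjusted p of a member was then 0.531. The labels do not say whether the numbers pair the libraries. Deviations of same-numbered libraries from their group means correlated at 0.60, -0.36 and 0.43. These values cannot decide it, since deviations within a group of 3 sum to 0 and are not independent. CMPK2, with 16 to 42 counts per library, was not kept when 3 libraries had to reach 1 CPM. For CMPK2 and MX2 the number of reads limits what could be seen.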
